A study of Mus musculus with 24 samples.

Results

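The Notch receptors, their ligands, and the Hes and Hey genes they switch on were followed in 8 lines of mouse cortical astrocytes that lack endogenous p53 or express a mutant p53 in its place. The members were 10 genes set by name, *Notch1*, *Notch2*, *Notch3*, *Jag1*, *Jag2*, *Dll1*, *Hes1*, *Hey1*, *Hey2*, and *Heyl*, of which 7 have a row among the 14427 genes of the deposited count table. *Jag2*, *Dll1*, and *Heyl* were not analysed here. That table lists genes that exceed 1 CPM, a read count scaled to the size of its library, in at least 3 libraries, so a missing row does not show that a gene was silent.

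The lines were derived from C57BL/6 postnatal day 1 pups with 1 floxed and 1 deleted *Trp53* allele, the gene for p53, with cells of at least 3 pups of a sex combined into 1 male and 1 female culture. All lines received Cre recombinase by lentivirus with puromycin selection, which deletes the floxed allele, and p53 KO lines received nothing else. The p53 R172H, p53 Y202C, and p53 Y217C lines had first been transduced with a retrovirus carrying that mutant and eGFP and sorted for eGFP, so the mutant protein cannot be told apart from the retroviral transduction and the sort. Each of the 8 lines was sequenced in 3 libraries at passages 10 to 15, and each mutant was compared with the p53 KO line of its own culture. Sex cannot be told apart from culture, since each sex is represented by 1 culture, and p-values measure the spread between platings of a line and not between animals.

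Notch receptors are membrane proteins that are cut when a ligand on a neighboring cell, such as Jagged 1 or Delta-like 1, engages them. The released intracellular domain enters the nucleus, joins the DNA-binding protein RBPJ and a Mastermind coactivator, and turns on genes that include the Hes and Hey families of transcriptional repressors. In the developing cortex the pathway is known for holding progenitors back from becoming neurons and for favoring glial fates.

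Library totals lay between 52787288 and 136503809 counts, and the members held from 125 to 32253 counts in a library. Replicates differed by more than counting noise, with a chi-square per gene of 6.84 to 59.2 between libraries of a line. Standing apart most were replicate 1 of female p53 Y217C (34.8 and 39.6 from the others, which differed by 8.06) and replicate 2 of female p53 Y202C (52.9 and 57.4, against 11.8). Less so were replicate 3 of male p53 Y202C (38.1 and 59.2, against 21.4) and replicate 1 of male p53 KO (21.3 and 29.1, against 11.1). The same held for replicate 1 of male p53 R172H (29.8 and 34, against 17) and of female p53 KO (11.5 and 13, against 6.84). Calls of members that changed without them are given beside their values or with the dependence on processing. *Trp53* checked the labels of p53 KO against mutant, and not the mutation or the sex of a library. It stood at 46.5 to 53.7 CPM in the 6 p53 KO libraries and at 572 to 3870 CPM in the 18 mutant libraries, with the lowest mutant level in female p53 Y202C and the highest in female p53 Y217C. Of the 9 astrocyte markers checked, all are in the table, and their summed level was 226 to 681 CPM. *Gja1* and *Sox9* made up most of it, whereas the line means of the defining markers *Gfap* and *Aqp4* were at most 0.257 and 0.113 CPM in the KO lines and highest in male p53 Y217C, at 6.93 and 8.06 CPM. The list of mural cell and fibroblast genes, of which 7 of 9 are in the table, summed to 6180 to 28900 CPM, mostly *Col1a1*, *Acta2*, and *Tagln*, while *Lum* stayed at or below 0.675 CPM in every line except female p53 R172H, at 18.2 CPM. The summed microglial, neuronal, oligodendrocyte lineage, and endothelial markers lay between 6.84 and 184 CPM, with 2 of 7, 3 of 5, 3 of 7, and 3 of 6 markers in the table.

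Differences are given as log2 fold changes from edgeR's quasi-likelihood test with standard errors (SE), and a gene is said to rise or fall where its Benjamini-Hochberg adjusted p over all 14427 genes was at most 0.05. In males, 5 of the 7 members changed in p53 R172H, where 40.7% of all genes did, 7 in p53 Y202C, where 73% did, and 5 in p53 Y217C, where 70.5% did. In females, 3 members changed in p53 R172H against 69.7% of all genes, 5 in p53 Y202C against 68.6%, and 5 in p53 Y217C against 56.7%. Over the 6 comparisons, 30 of 42 tests of members passed the threshold, beside 63.2% of all such tests, and the replicates of mutant and KO did not overlap in 30 of 42, beside 69.4%. Over all comparisons, these shares of members lay near those of all genes. The median log2 fold change of the 7 members was -0.06, 0.64, and 0.41 in male p53 R172H, p53 Y202C, and p53 Y217C and -0.06, 0.10, and -0.05 in the same mutants in females. Over all genes it lay between -0.01 and 0.012 in each of these comparisons.

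**Figure D1:**
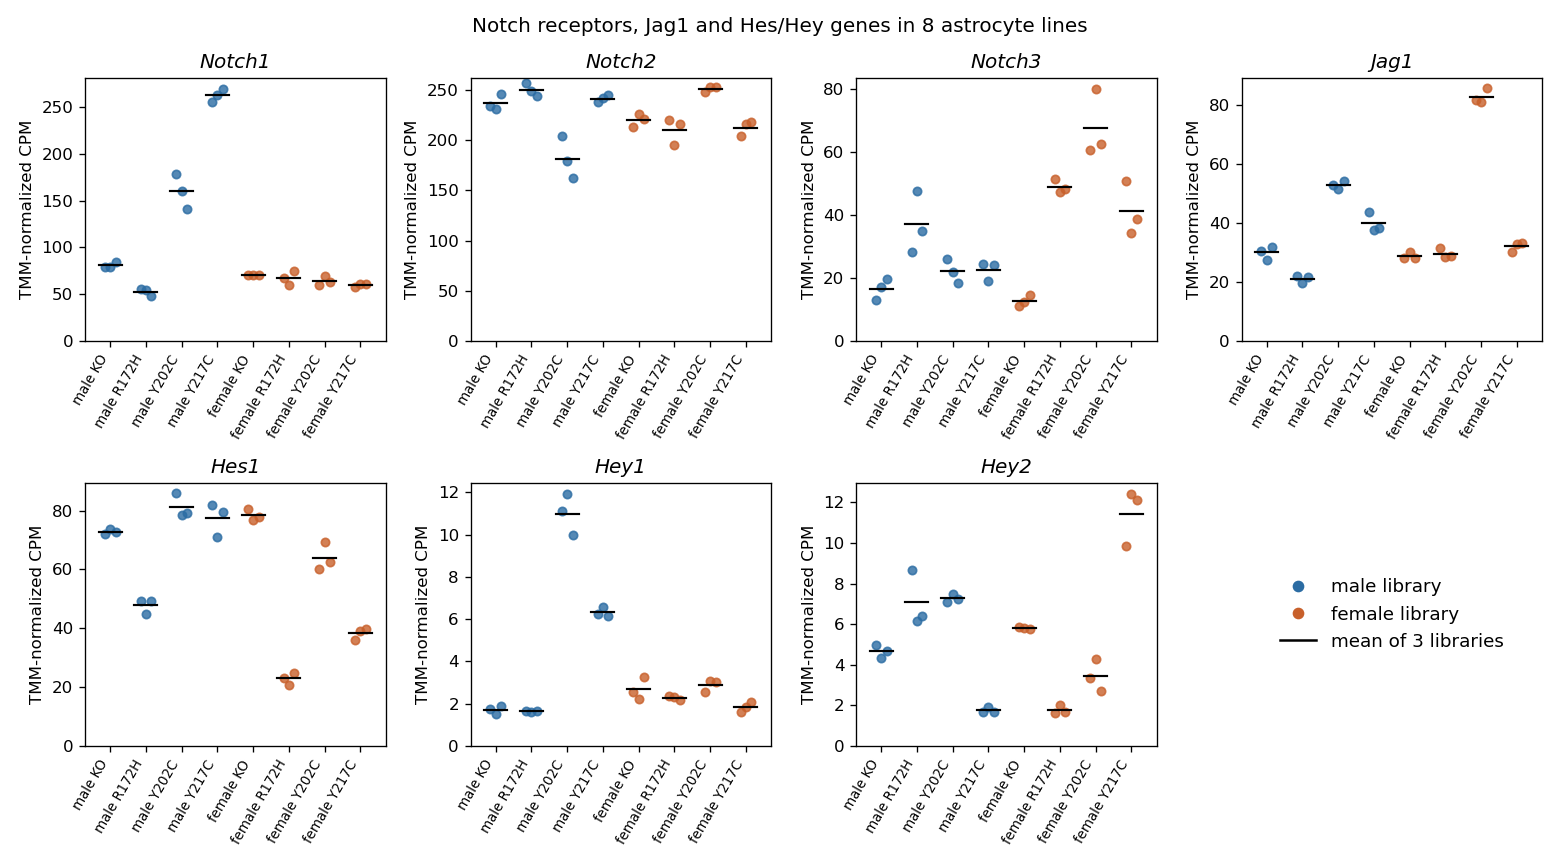
Normalized expression of the 7 members in 24 libraries, in CPM on linear axes that start at 0, with 1 point per library, 3 libraries per line, and a black bar at the mean of the line. *Notch1* and *Hey1* stand highest in male p53 Y217C and male p53 Y202C, *Notch3* in the female mutant lines, and *Hey2* in female p53 Y217C.

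The 250 bases before the gene starts of *Notch1* and *Notch3*, the receptors that varied most, and of *Hey2*, a target whose direction differed between the cultures, are printed here, and of these *Hey2* carries the core of an RBPJ site. The sequences are RefSeq's for GRCm38.p6, written along the strand of the gene and ending at the base before its start, from chr2:26503823-26504072, chr17:32166891-32167140, and chr10:30842784-30843033, all on the minus strand. Capitals mark the letters TGGGAA or GTGGGAA, the core of an RBPJ site, and CACNAG, the N-box that HES proteins bind, on either strand.
Notch1: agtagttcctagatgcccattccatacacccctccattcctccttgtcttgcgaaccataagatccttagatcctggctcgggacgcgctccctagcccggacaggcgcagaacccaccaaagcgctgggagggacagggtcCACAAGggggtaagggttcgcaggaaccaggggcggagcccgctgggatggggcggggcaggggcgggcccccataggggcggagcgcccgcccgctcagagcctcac
Notch3: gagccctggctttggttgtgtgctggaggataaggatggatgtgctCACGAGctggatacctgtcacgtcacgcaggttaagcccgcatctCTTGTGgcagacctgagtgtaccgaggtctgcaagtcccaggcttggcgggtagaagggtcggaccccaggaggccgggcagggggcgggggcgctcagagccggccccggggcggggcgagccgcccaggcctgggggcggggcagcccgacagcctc
Hey2: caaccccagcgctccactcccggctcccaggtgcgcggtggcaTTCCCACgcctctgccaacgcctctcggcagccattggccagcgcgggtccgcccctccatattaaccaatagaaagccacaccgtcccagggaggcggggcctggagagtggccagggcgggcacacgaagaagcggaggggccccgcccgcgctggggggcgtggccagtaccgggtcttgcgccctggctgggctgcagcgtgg
The RBPJ core in *Hey2* begins at position -207 from the gene start on the opposite strand, and a further copy runs across the gene start itself. N-box letters begin at -108 in *Notch1*, with further copies from -3 and, on the opposite strand, from -1 that run across its start, and at -204 and -159 in *Notch3*. Among 32851 promoters of that table, each searched from 250 bases before to 50 after the start, 25.6% held TGGGAA, 6.38% the longer GTGGGAA, which contains it, and 42.5% CACNAG. The E-box CACGTG was in 7.15% and a head-to-head pair of RBPJ cores, TGGGAA and TTCCCA with 10 to 25 bases between them, in 0.0913%, and neither was found for any member with an entry. A match describes letters only and was not tested as a binding site. The promoters of *Notch2*, *Jag1*, *Jag2*, and *Dll1* were searched too, and those of *Hes1*, *Hey1*, and *Heyl* were not. The upstream stretch of *Notch1* lies within an intron of a longer transcript in the GENCODE annotation, and the last bases of that of *Hey2* lie in its first exon there.

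Among the receptors, *Notch1* rose in male p53 Y217C and male p53 Y202C, fell in male p53 R172H, and moved little in females. *Notch1* (ENSMUSG00000026923) lies on chromosome 2 of GRCm38 from 26457903 to 26516663. In replicates 1, 2, and 3 of male p53 KO it stood at 79.3, 79.4, and 84.8 CPM, and in male p53 R172H at 55.1, 54.4, and 48.1 CPM. It reached 179, 160, and 141 CPM in male p53 Y202C and 256, 263, and 270 CPM in male p53 Y217C. The 4 male lines did not overlap, and they held the 3 highest and the lowest of the 8 line means. Female p53 KO gave 70.3, 70.4, and 70.3 CPM, p53 R172H 66.8, 59.8, and 75.1 CPM, p53 Y202C 59.4, 69.6, and 63.0 CPM, and p53 Y217C 58.2, 60.6, and 61.4 CPM. In females, neighboring lines in the order of means overlapped, but p53 Y202C and p53 Y217C each lay below p53 KO without overlap. Against male p53 KO the log2 fold change was -0.63 (SE 0.08, adjusted p = 9.29e-07) in p53 R172H and 0.98 (SE 0.08, adjusted p = 5.93e-11) in p53 Y202C. It was 1.70 (SE 0.08, adjusted p = 2.73e-15) in p53 Y217C, a 3.24-fold rise. In females it was -0.06 and -0.14 in p53 R172H and p53 Y202C, with adjusted p = 0.477 and 0.131. The second passed under limma's voomWithQualityWeights and without replicate 2 of female p53 Y202C, with adjusted p = 0.0122 and 0.04. *Notch1* fell by 0.23 in p53 Y217C with adjusted p = 0.0168, which became 0.0591 without replicate 1 of that line. Antisense genes share exon sequence with *Notch1* and *Notch3* in the annotation, and a gene of the same strand shares it with *Notch2*. None of them is in the table, and reads of the opposite strands cannot be told apart because the strand of counting was not given.

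Of the 9 astrocyte markers, 3 rose and 6 fell in male p53 Y202C, with a median log2 fold change of -0.88, and 7 rose and none fell in male p53 Y217C, with 3.11. In male p53 R172H 5 fell and none rose, with -0.66. Of those that rose, *Aldh1l1* was at 0.629 CPM in the male KO line, 28.4 in the Y202C line, and 56.6 in the Y217C line, and *Aqp4* at 0.113, 1.77, and 8.06 CPM. The whole astrocyte list summed to 385 to 406, 226 to 239, and 556 to 600 CPM in the same lines. *Notch1* rose both in male p53 Y202C, where the sum and most of the markers fell, and in male p53 Y217C, where the sum and most of the markers rose. It fell in male p53 R172H, where 5 markers fell and none rose. In bulk RNA, fewer cells of a type and less RNA per cell cannot be told apart, and the part of cell composition in these results was not tested.

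*Notch2* was the most even member. It lies on chromosome 3 from 98013527 to 98150361 (ENSMUSG00000027878). Its line means ranged from 182 CPM in male p53 Y202C to 251 CPM in female p53 Y202C. The replicates of male p53 KO gave 234, 231, and 246 CPM and those of male p53 Y202C 204, 179, and 162 CPM, without overlap. In females, p53 KO gave 213, 226, and 221 CPM and p53 Y202C 248, 253, and 253 CPM, again without overlap. *Notch2* fell in male p53 Y202C, with a log2 fold change of -0.38 (SE 0.06, adjusted p = 4.94e-06), and rose in female p53 Y202C, with 0.19 (SE 0.06, adjusted p = 0.00711). In the other 4 mutant lines the log2 fold change lay between -0.06 and 0.08, none of them past the threshold, and the replicates overlapped those of the KO.

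*Notch3*, the receptor best known from mural cells of blood vessels, was the only member called higher in all 6 mutant lines, as were 2.54% of all genes, although the calls in male p53 Y202C and male p53 Y217C were lost when single libraries were left out. The 3 mutants of a culture share their KO libraries, so these are not 6 separate observations. *Notch3* (ENSMUSG00000038146) lies on chromosome 17 from 32120820 to 32166852. In females it stood at 11.1, 12.3, and 14.4 CPM in p53 KO, at 51.2, 47.1, and 48.2 CPM in p53 R172H, at 60.4, 79.8, and 62.4 CPM in p53 Y202C, and at 50.6, 34.2, and 38.6 CPM in p53 Y217C. Every female mutant library lay above every female KO library. The log2 fold change was 1.95 (SE 0.18, adjusted p = 1.22e-09), 2.42 (SE 0.18, adjusted p = 4.48e-11), and 1.71 (SE 0.18, adjusted p = 2.82e-08) in the same order, or 3.88-, 5.36-, and 3.27-fold.

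The male rises of *Notch3* were smaller. Male p53 KO gave 13, 17.1, and 19.7 CPM, and male p53 R172H 28.3, 47.6, and 34.8 CPM, without overlap, for a log2 fold change of 1.14 (SE 0.18, adjusted p = 1.68e-05). Male p53 Y202C, with 26.1, 21.8, and 18.5 CPM, and male p53 Y217C, with 24.3, 19.1, and 23.9 CPM, overlapped the KO. Their log2 fold changes of 0.41 and 0.43 (SE 0.18 each) passed with adjusted p = 0.0406 and 0.0353. Neither call held throughout. For p53 Y202C the adjusted p was 0.0634 with DESeq2 and 0.0515 where at least 10 counts in every library were required, and it was 0.204 without replicate 1 of male p53 KO, 0.065 without its replicate 2, 0.217 without replicate 1 of male p53 Y202C, and 0.064 without its replicate 2. For p53 Y217C it was 0.184 and 0.0585 without replicates 1 and 2 of male p53 KO and 0.115 and 0.104 without replicates 1 and 3 of male p53 Y217C.

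Of the 7 mural cell and fibroblast genes tested, 5 rose and 2 fell in female p53 R172H, 4 and 2 in female p53 Y202C, and 4 and 1 in female p53 Y217C, with median log2 fold changes of 0.71, 0.51, and 0.26. In the male lines 2 rose and 2 fell with R172H, 1 and 3 with Y202C, and 2 and 4 with Y217C, with medians of 0.08, -0.04, and -0.33. In females the sum of the list was 16500 to 17400 CPM in p53 KO, 24600 to 28900 CPM in p53 R172H, 21500 to 24900 CPM in p53 Y202C, and 17300 to 17500 CPM in p53 Y217C. In males it was 19900 to 22700 CPM in p53 KO, 22700 to 24200 CPM in p53 R172H, 6180 to 7370 CPM in p53 Y202C, and 18800 to 19400 CPM in p53 Y217C. The part of mural cells in the level of *Notch3* was not tested.

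Divided by exon length, in CPM per kb, *Notch2* was the most abundant receptor in each line, and the mutant lines differed in which receptor came next. *Notch2* stood at 22 ± 0.714 CPM per kb (SD, n = 3) in male p53 KO and 20.4 ± 0.613 in female p53 KO, against 5.70 ± 0.22 and 4.94 ± 0.00275 for *Notch1* and 2.05 ± 0.416 and 1.56 ± 0.211 for *Notch3*. Of the summed length-corrected level of the 4 Notch receptors, *Notch1* made up 19.1% ± 0.108 (SD, n = 3) in male p53 KO, 36.4% ± 0.267 in Y202C males, and 42.2% ± 0.507 in male p53 Y217C. *Notch3* made up 5.76% ± 0.681 in female p53 KO and 19.9% ± 0.852, 22.9% ± 2.42, and 17.5% ± 3.42 in female p53 R172H, p53 Y202C, and p53 Y217C, in the mean each above the share of *Notch1* there. The libraries of female p53 Y217C overlapped, with 14.8% to 21.3% for *Notch3* and 13.9% to 14.9% for *Notch1*, and those of the other female mutants did not. In male p53 R172H *Notch3* made up 14.4% ± 3.35 and *Notch1* 11.7% ± 0.622, with overlapping libraries. *Notch4*, listed with the other pathway genes, was at or below 0.506% in each line.

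**Figure D2:**
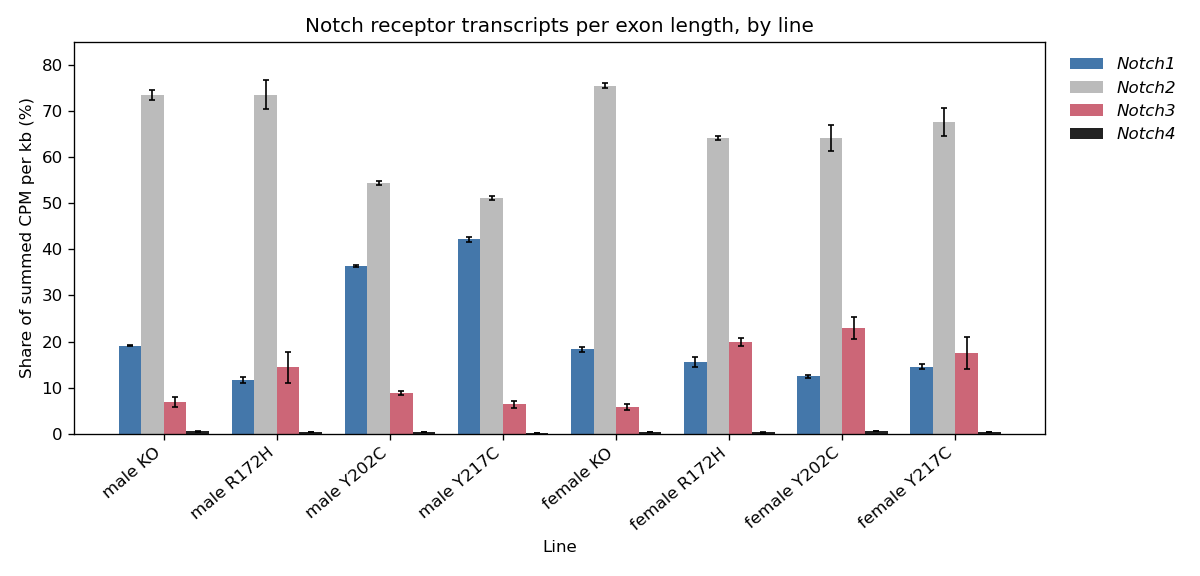
Share of each Notch receptor in the summed CPM per kb of exon of *Notch1* to *Notch4*, in percent, as the mean of 3 libraries per line with bars of 1 SD. *Notch1* takes 36.4% and 42.2% in male p53 Y202C and p53 Y217C, and *Notch3* takes 17.5% to 22.9% in the female mutant lines against 5.76% in female p53 KO, and 14.4% in male p53 R172H against 6.84% in male p53 KO.

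*Jag1*, which encodes the ligand Jagged 1, rose in p53 Y202C of both cultures. It lies on chromosome 2 from 137081456 to 137116644 (ENSMUSG00000027276). Its level was 30.5, 27.4, and 31.9 CPM in male p53 KO and 52.8, 51.6, and 54.1 CPM in male p53 Y202C, and 28.1, 30.1, and 28.1 CPM in female p53 KO and 81.5, 80.8, and 85.6 CPM in female p53 Y202C. The log2 fold changes were 0.82 (SE 0.07, adjusted p = 6.36e-11) in males and 1.52 (SE 0.07, adjusted p = 1.67e-15) in females. Male p53 R172H, at 22, 19.6, and 21.6 CPM, lay below male p53 KO, with a log2 fold change of -0.50 (SE 0.07, adjusted p = 1.91e-06). Male p53 Y217C, at 43.6, 37.7, and 38.3 CPM, lay above it, with 0.41 (SE 0.07, adjusted p = 5.65e-06). Female p53 R172H overlapped its KO at 31.4, 28.4, and 28.7 CPM. Female p53 Y217C, at 30.2, 32.7, and 33.1 CPM, missed the threshold with a log2 fold change of 0.15 (SE 0.07, adjusted p = 0.0504), which passed under limma's voomWithQualityWeights with adjusted p = 0.0106, with only the lines compared in the fit with adjusted p = 0.0215, and without replicate 2 of female p53 KO or replicate 1 of female p53 Y217C with adjusted p = 0.0397 and 0.0296. The level in female p53 Y202C exceeded that in female p53 R172H by 1.49 and that in female p53 Y217C by 1.37 on the log2 scale (adjusted p = 2.61e-15 and 1.18e-14), and in males p53 Y202C exceeded p53 R172H by 1.32 and p53 Y217C by 0.41 (adjusted p = 1.27e-14 and 6.35e-06).

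Among the targets, *Hes1*, a repressor that is a direct RBPJ target in many cell types, fell in all 3 female mutants and in male p53 R172H. It lies on chromosome 16 from 30064384 to 30067796 (ENSMUSG00000022528). Female p53 KO gave 80.5, 76.7, and 78.0 CPM, and p53 R172H 23.2, 20.8, and 24.8 CPM. Female p53 Y217C gave 36.0, 39.1, and 39.6 CPM and p53 Y202C 60.2, 69.2, and 62.4 CPM. The 4 female lines did not overlap, and the log2 fold changes were -1.77 with R172H, -0.29 with Y202C, and -1.04 with Y217C (SE 0.07 each), with adjusted p = 9.91e-17, 0.000413, and 6.23e-12. In males, p53 KO gave 71.9, 73.8, and 72.6 CPM and p53 R172H 49.3, 45.0, and 49.3 CPM, a log2 fold change of -0.60 (SE 0.07, adjusted p = 1.25e-07). Male p53 Y202C stood at 86.0, 78.6, and 79.2 CPM and p53 Y217C at 81.8, 71.0, and 79.6 CPM. The rise of 0.16 in male p53 Y202C (SE 0.07, adjusted p = 0.033) was lost with at least 10 counts in every library, with only the lines compared in the fit (adjusted p = 0.0606 and 0.0591), without each of replicates 1, 2, and 3 of male p53 KO (0.0776, 0.0506, and 0.0687), and without replicate 1 of male p53 Y202C (0.154). The 0.09 of male p53 Y217C had adjusted p = 0.226, or 0.0376 under limma.

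*Hey1*, a repressor of the Hairy/E(spl)-related family, rose in the same male lines as *Notch1*. It lies on chromosome 3 from 8663359 to 8667256 (ENSMUSG00000040289). Its level was 1.75, 1.49, and 1.87 CPM in male p53 KO and 1.64, 1.61, and 1.66 CPM in male p53 R172H. It was 11.1, 11.9, and 9.97 CPM in male p53 Y202C and 6.26, 6.56, and 6.15 CPM in male p53 Y217C, above every library of the other 6 lines. The log2 fold changes of 2.69 (SE 0.14, adjusted p = 1.13e-14) and 1.89 (SE 0.13, adjusted p = 8.09e-12) correspond to 6.46- and 3.71-fold. Females gave 2.56, 2.24, and 3.24 CPM in p53 KO, 2.34, 2.31, and 2.18 CPM in p53 R172H, 2.54, 3.06, and 3.04 CPM in p53 Y202C, and 1.60, 1.85, and 2.08 CPM in p53 Y217C. Among these only p53 Y217C passed, with -0.55 (SE 0.14, adjusted p = 0.00167), and p53 R172H, with -0.24 (SE 0.13, adjusted p = 0.111), passed when replicate 2 of female p53 KO was left out (adjusted p = 0.0309). Over the 8 line means of log2 CPM, *Hey1* was the gene most like *Notch1* among 49 members and pathway genes compared, with r = 0.84, and *Notch1* was the gene most like *Hey1*. This is a description over 8 lines of 2 cultures, in which male p53 Y202C and male p53 Y217C held the highest means of both genes. *Trp53* stood at 2200 to 2350 CPM in male p53 R172H, 2260 to 2440 CPM in male p53 Y202C, and 1190 to 1250 CPM in male p53 Y217C. In females it stood at 1890 to 2020 CPM in p53 R172H, 572 to 605 CPM in p53 Y202C, and 3550 to 3870 CPM in p53 Y217C. The part of transgene level in *Hey1* was not tested.

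*Hey2*, the related repressor whose upstream sequence is shown above, changed in all 6 mutant lines, and for each mutation in opposite directions in males and females. It lies on chromosome 10 from 30832359 to 30842801 (ENSMUSG00000019789). In males it stood at 4.98, 4.35, and 4.69 CPM in p53 KO, 8.69, 6.17, and 6.39 CPM in p53 R172H, 7.09, 7.49, and 7.24 CPM in p53 Y202C, and 1.67, 1.90, and 1.67 CPM in p53 Y217C. In females it stood at 5.84, 5.82, and 5.75 CPM in p53 KO, 1.62, 2.03, and 1.66 CPM in p53 R172H, 3.36, 4.26, and 2.71 CPM in p53 Y202C, and 9.84, 12.4, and 12.1 CPM in p53 Y217C. No mutant line overlapped its KO. Male log2 fold changes were 0.61, 0.64, and -1.42 in p53 R172H, p53 Y202C, and p53 Y217C (SE 0.14, 0.14, and 0.15), with adjusted p = 0.00127, 0.000256, and 1.4e-08. Female log2 fold changes were -1.71, -0.76, and 0.98 (SE 0.15, 0.15, and 0.14), with adjusted p = 3.7e-10, 7.42e-05, and 2.15e-06. Male p53 R172H and male p53 Y202C differed by 0.03 in log2 *Hey2* (SE 0.14, adjusted p = 0.835), and their Trp53 levels by 0.02 (SE 0.05, adjusted p = 0.708). Male p53 Y217C was lower in *Hey2* than male p53 R172H by 2.02 on the log2 scale (adjusted p = 2.49e-11), with a log2 difference of -0.91 in Trp53. Against female p53 R172H, the log2 differences of Trp53 and *Hey2* were -1.72 and 0.96 in female p53 Y202C and 0.92 and 2.69 in female p53 Y217C. The part of transgene level in *Hey2* was not tested.

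Per kb of exon, *Hes1* was the most abundant of the 3 targets in each line. It stood at 35.7 ± 0.472 CPM per kb (SD, n = 3) in male p53 KO and 38.5 ± 0.945 in female p53 KO, against 0.522 ± 0.0606 and 0.822 ± 0.157 for *Hey1* and 1.02 ± 0.0687 and 1.26 ± 0.0107 for *Hey2*. *Hey1* lay above *Hey2* without overlap in male p53 Y202C, at 3.37 ± 0.301 against 1.58 ± 0.0442 CPM per kb, in male p53 Y217C, at 1.94 ± 0.0651 against 0.381 ± 0.0287, and in female p53 R172H, at 0.698 ± 0.0265 against 0.385 ± 0.0485. In female p53 Y202C the libraries overlapped, at 0.882 ± 0.0908 and 0.75 ± 0.17.

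**Figure D3:**
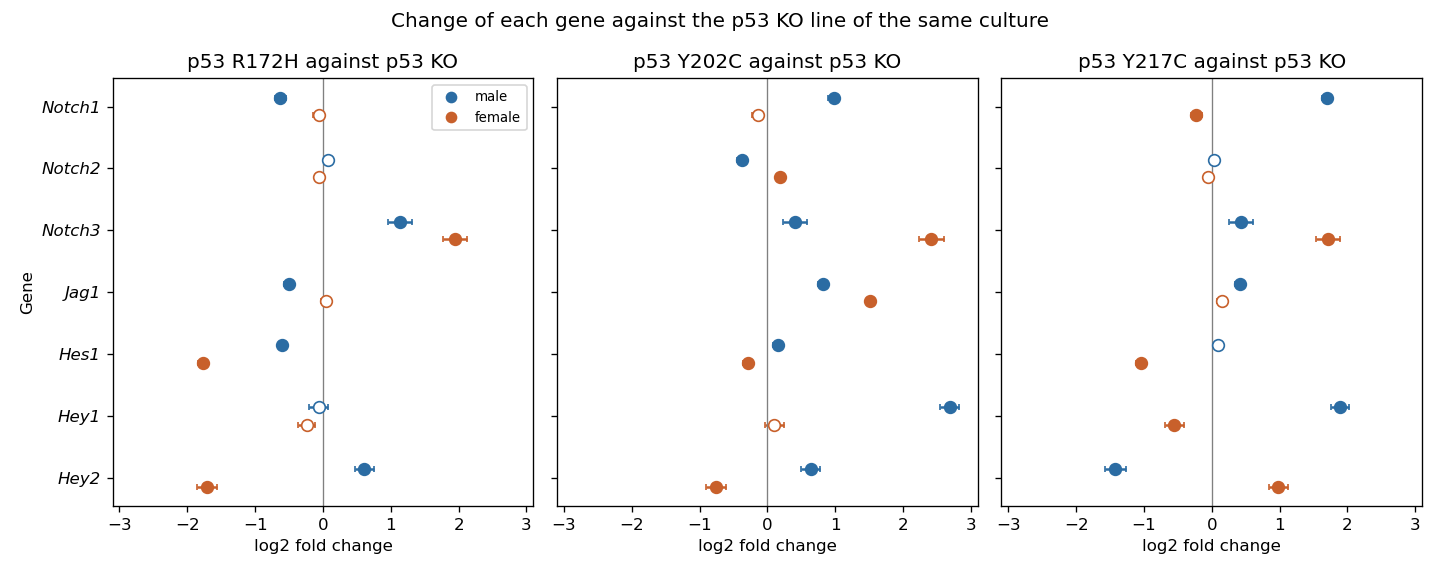
Log2 fold change of each member against the p53 KO line of its culture, for the 3 mutations, with bars of 1 standard error. Filled points passed an adjusted p of 0.05 in edgeR's quasi-likelihood test. *Hey2* lies on opposite sides of 0 in males and females for each mutation, and *Notch3* lies to the right of 0 throughout.

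The difference between the male and the female effect of a mutation was tested as an interaction. It passed in 18 of 21 tests of members, beside 60.3% of all such tests. These were 5 of 7 members with p53 R172H, where 58% of all genes passed, 7 with p53 Y202C, where 68% did, and 6 with p53 Y217C, where 54.8% did. In 7 of 21 pairs of a member and a mutation, the male and the female change passed the threshold in opposite directions, beside 15.7% of all such pairs. These were *Hey2* with each mutation, *Notch1* and *Hey1* with p53 Y217C, and *Notch2* and *Hes1* with p53 Y202C. They changed in the same direction in 5 pairs, beside 26.7% of all pairs, namely *Notch3* with each mutation, *Jag1* with p53 Y202C, and *Hes1* with p53 R172H.

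The male effect exceeded the female effect on *Hey1* by 2.59 with p53 Y202C and 2.44 with p53 Y217C (SE 0.19 each, adjusted p = 1.65e-11 and 1.05e-10) and on *Notch1* by 1.12 and 1.92 (SE 0.11 each, adjusted p = 3.76e-09 and 3.22e-13). The female effect on *Notch3* exceeded the male effect with each mutation, by a log2 difference, written as male minus female, of -0.81 with p53 R172H, -2.01 with Y202C, and -1.28 with Y217C (SE 0.25 each, adjusted p = 0.0078, 1.89e-07, and 0.00014). Male and female transgene levels differed too, since the same interaction for Trp53 was 1.91 with p53 Y202C and -1.67 with p53 Y217C (adjusted p = 2.21e-16 and 4.7e-15), and 0.17 with p53 R172H (adjusted p = 0.0586). The part of transgene level in these differences was not tested. Between male and female p53 KO, 2 of 7 members differed, where 31.1% of all genes did. The number was 5 with limma, where 49.8% of all genes differed, 6 with only these lines in the fit, where 43.8% did, and 1 with the replicate block, where 29.9% did. *Hey1* was lower in males by a log2 fold change of -0.66 (SE 0.14, adjusted p = 0.000538). *Notch1* was higher by 0.21 (SE 0.08, adjusted p = 0.0462), a call that was lost when any 1 of the 6 KO libraries was left out.

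Beyond the members, 43 of 53 other genes of the pathway fixed by name could be tested. In males, 16 changed in p53 R172H, 13 up and 3 down, beside 40.7% of all genes, 35 in p53 Y202C, 21 up and 14 down, beside 73%, and 31 in p53 Y217C, 17 up and 14 down, beside 70.5%. In females, 33 changed in p53 R172H, 17 up and 16 down, beside 69.7%, 29 in p53 Y202C, 15 up and 14 down, beside 68.6%, and 27 in p53 Y217C, 12 up and 15 down, beside 56.7%. Their median log2 fold change lay between -0.12 and 0.14. *Dll3*, *Dll4*, *Dner*, *Mfng*, *Dtx1*, *Hes5*, *Hes7*, *Neurog1*, and *Neurog2* have no row and were not analysed here.

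Of 5 other targets tested, *Nrarp*, whose product limits Notch signaling as a feedback inhibitor, moved most. It rose in male p53 Y202C and male p53 Y217C, from 1.02 CPM in male p53 KO to 7.02 and 3.59 CPM, with log2 fold changes of 2.79 and 1.82 (SE 0.20 each, adjusted p = 8.6e-12 and 1.75e-08). It fell in female p53 R172H and female p53 Y202C, from 1.43 CPM to 0.230 and 0.205 CPM, with -2.64 (SE 0.24) and -2.77 (SE 0.26) and adjusted p = 7.64e-10 and 2.13e-09. *Ccnd1*, which encodes cyclin D1, was at 231 CPM in male p53 KO and 730 CPM in male p53 Y202C, with 1.66 (SE 0.05, adjusted p = 2.12e-18). Its exons overlap those of *LTO1* on the other strand, so its counts are uncertain. *Myc* was at 270 CPM in female p53 KO and 146 CPM in female p53 R172H, with -0.89 (SE 0.06, adjusted p = 5.21e-12).

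Among 3 other receptors and ligands, *Dlk1*, a Delta-like protein without the domain that activates Notch receptors, rose from 2.14 CPM in female p53 KO to 71.8 CPM in female p53 R172H and 16.1 CPM in female p53 Y202C, log2 fold changes of 5.08 and 2.91 (SE 0.15 each, adjusted p = 1.09e-18 and 2.38e-14). It fell in female p53 Y217C to 0.587 CPM and in male p53 Y202C from 3.35 to 0.544 CPM, with -1.86 (SE 0.20) and -2.66 (SE 0.19). The related *Dlk2* fell by 2.60 in male p53 Y202C and by 2.09 in female p53 Y202C (SE 0.19 and 0.18), and its exons overlap those of *Abcc10* on the other strand, so its counts are uncertain. Neither fall was particular to these lines, since all 3 other receptors and ligands fell in male p53 Y217C. Over the 6 mutant lines *Dlk2* was called lower in 4, and *Dlk1* higher in 2 and lower in 3.

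Of 11 tested genes of ligand and receptor trafficking and turnover, *Neurl1b*, a ubiquitin ligase that acts on Notch ligands, rose from 1.37 CPM in male p53 KO to 26.0 CPM in male p53 Y217C, 18.8-fold, with a log2 fold change of 4.23 (SE 0.14, adjusted p = 4.36e-18). In females it rose from 2.18 CPM to 6.73 CPM in p53 Y202C and 8.67 CPM in p53 Y217C, with 1.64 and 2 (SE 0.13 each). Its relative *Neurl1a* fell in male p53 Y217C from 13.7 to 3.16 CPM, with -2.12 (SE 0.10, adjusted p = 5.53e-15), and rose in male p53 R172H with 0.49 (SE 0.09, adjusted p = 0.000176). *Dtx4*, a Deltex ubiquitin ligase, rose in male p53 R172H with 0.57 and in female p53 Y217C with 0.90 (SE 0.06 each, adjusted p = 4.09e-08 and 7.77e-12).

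In the nuclear complex and its co-repressors, of which 11 genes were tested, *Rbpj* fell in male p53 Y217C from 197 to 74.2 CPM, with a log2 fold change of -1.41 (SE 0.07, adjusted p = 6.48e-15). That is the line with the highest *Notch1*. *Tle2*, a Groucho co-repressor, rose in female p53 R172H from 47.2 to 105 CPM, with 1.16 (SE 0.08, adjusted p = 1.11e-11), and *Tle1* fell in male p53 R172H from 30.5 to 23.7 CPM, with -0.36 (SE 0.05, adjusted p = 1e-06). Over the 6 mutant lines *Tle1* was called higher in 4 and lower in 2, *Tle2* higher in 3 and lower in 1, and *Rbpj* higher in 1 and lower in 3. Of 9 genes of receptor cleavage, *Psen2*, which encodes a catalytic subunit of gamma-secretase, fell in female p53 Y217C from 11.1 to 5.21 CPM, with -1.09 (SE 0.12, adjusted p = 4.05e-08). Its fall of 0.30 in male p53 R172H (SE 0.11, adjusted p = 0.0406) was lost without replicates 2 or 3 of male p53 KO (adjusted p = 0.0663 and 0.142) and without replicates 1 or 3 of male p53 R172H (adjusted p = 0.147 and 0.103). Over the 6 mutant lines *Psen2* was called higher in 2 and lower in 2. Apart from *Notch3*, *Maml2* and *Psenen* rose in all 6 mutant lines, as did 2.54% of all genes, and both were named after their values were seen. Exons of *Psenen* overlap those of *U2af1l4* on the other strand, so its counts are uncertain.

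**Figure D4:**
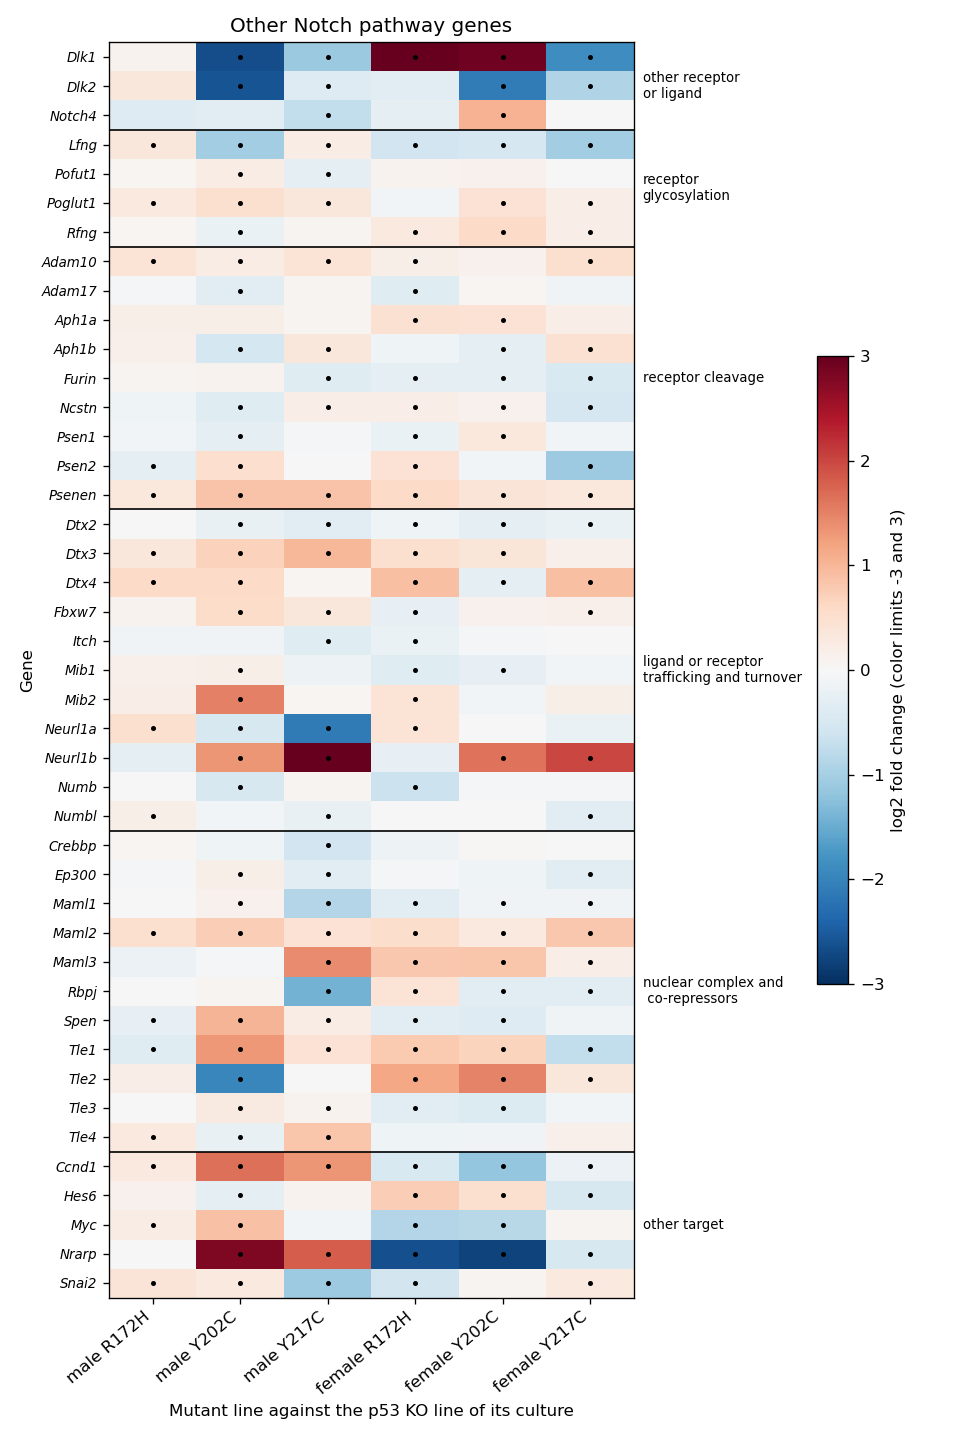
Log2 fold change of the 43 other Notch pathway genes in each mutant line against the p53 KO line of its culture, grouped by role, with colors limited at -3 and 3. A black dot marks an adjusted p of at most 0.05. *Nrarp* is red in male p53 Y202C and p53 Y217C and blue in the 3 female mutants, and *Neurl1b* is darkest in male p53 Y217C.

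The pathway gene most like each of the other members over the 8 line means of log2 CPM was *Adam17* for *Notch2* (r = 0.81), *Aph1a* for *Notch3* (r = 0.89), *Tle1* for *Jag1* (r = 0.63), *Fbxw7* for *Hes1* (r = 0.65), and *Mib1* for *Hey2* (r = 0.88). Each is the highest of 49 correlations over 8 lines that share a culture in groups of 4, and is given as a description. Exons of *Adam17* overlap those of *Iah1* on the other strand, so its counts are uncertain.

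The mutants of a culture were also compared with each other, with the share of all genes that differed given beside each count. Male p53 Y202C differed from male p53 R172H at 6 members, where 71.4% of all genes differed, and male p53 Y217C from male p53 R172H at 6, where 68.9% did. Male p53 Y202C differed from male p53 Y217C at 5, where 73.5% did. In females, p53 Y202C differed from p53 R172H at 6, where 59.5% did, and from p53 Y217C at 6, where 62.6% did. Female p53 Y217C differed from female p53 R172H at 2 members, *Hes1* and *Hey2*, where 66.2% of all genes differed. With DESeq2, with its size factors in edgeR, and with at least 10 counts in every library it differed at 4, adding *Notch1* (adjusted p = 0.033, 0.0374, and 0.0306) and *Hey1* (adjusted p = 0.0326, 0.0365, and 0.0341). *Hes1* was higher in female p53 Y217C by 0.74 (SE 0.07, adjusted p = 1.26e-09) and *Hey2* by 2.69 (SE 0.15, adjusted p = 1.06e-13). Male p53 Y217C exceeded male p53 Y202C in *Notch1*, with a log2 difference of p53 Y202C minus p53 Y217C of -0.71 (SE 0.08, adjusted p = 1.4e-08), whereas male p53 Y202C exceeded male p53 Y217C in *Hey1* by 0.80 (SE 0.13, adjusted p = 4.5e-06).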

How the data were processed

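RNA-seq was performed by the study's authors on 24 libraries. They aligned reads with STAR 2.5.1a to an Ensembl primary assembly, assigned unambiguous reads to genes with featureCounts, and deposited raw counts for 14427 genes with low counts removed. The strand of counting is not given in the sources used here. Ensembl identifiers were paired with GENCODE M21 symbols on GRCm38, which named 14350 of them. All depths and counts refer to this table, and no column belonged to other samples.

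The counts were tested with edgeR 4.0.16 (R 4.3.3). After TMM normalization, a filter of 1 CPM in at least 2 libraries left every gene in, and all libraries entered 1 quasi-likelihood fit with a mean for each line. Benjamini-Hochberg adjusted p-values of at most 0.05 over all genes were called. CPM values are TMM-normalized, and log2 line means used a prior count of 2. Levels per kb used the summed exon length of GENCODE. The fit was also run on simulated counts, for male p53 R172H against male p53 KO only. Their spread followed the trend over expression level and not that of each gene. Only 200 genes were changed, where 40.7% of all genes were called in the real comparison. The fit recovered 171 of 191 changed genes, with 8 false calls among 13832 genes tested. Because the settings differ, these numbers do not give its error rate on the real counts.

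The members and the pathway lists were chosen with earlier results of these data known. All members are named, as are the 2 largest rises and falls of listed pathway genes in each mutant that passed and had 10 or more counts in each library of the higher line, and the gene most like each member. DESeq2 1.42.0, limma 3.58.1, other filters, thresholds, and size factors, fits restricted to the lines in a comparison, a block for the replicate number, and leaving out each library were tried as alternatives. Not every listed gene is reported here.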

Additional observations from a re-analysis of the deposited data

Results flagged for a closer look

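Of 21 differences between the male and the female effect of a mutation on a member, 18 passed an adjusted p of 0.05 as an interaction of culture and mutation in edgeR's quasi-likelihood test, where 60.3% of all such tests over all genes did. Each is a log2 difference, male minus female. For *Notch1* it was -0.56 with p53 R172H, 1.12 with p53 Y202C, and 1.92 with p53 Y217C. For *Notch2* it was -0.58 with p53 Y202C. For *Notch3* it was -0.81, -2.01, and -1.28 with p53 R172H, p53 Y202C, and p53 Y217C. For *Jag1* it was -0.54, -0.70, and 0.26 in that order, and the last was lost without replicate 2 of female p53 KO (adjusted p = 0.0605), replicate 1 of female p53 Y217C (0.0614), replicate 2 of male p53 KO (0.0795), or replicate 1 of male p53 Y217C (0.0866). For *Hes1* it was 1.17, 0.45, and 1.13. For *Hey1* it was 2.59 with p53 Y202C and 2.44 with p53 Y217C. For *Hey2* it was 2.32, 1.4, and -2.40. Each sex is 1 culture, so a difference between cultures and one between sexes cannot be told apart.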

How the results depend on the processing

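The fit without a filter on low counts equals the reported one, which left every gene in. Of 672 member log2 fold changes recomputed under the other settings, leaving out no library, 641 kept their direction and their side of the threshold, as did 748 of 798 with a library left out. With an absolute log2 fold change above 0.5 required, the members called numbered 4 in male p53 Y202C, 3 in male p53 Y217C, and 3 in female p53 Y202C against their KO, where 45.3%, 40.3%, and 37.7% of all genes were called, 1 between the KO lines (12%), 3 between male p53 Y202C and p53 Y217C (45.4%), and 3 between female p53 Y202C and p53 R172H (27.7%). Between the KO lines, 1 member was called at an adjusted p of 0.01 (21.6% of all genes), 5 with limma (49.8%), 6 with only those lines in the fit (43.8%), and 1 to 2 with a library left out. Between female p53 Y217C and p53 R172H, 4 were called with DESeq2, with its size factors in edgeR, or with at least 10 counts in every library, where 66.7%, 65.8%, and 65.8% of all genes were.

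Replicate numbers did not pair the samples: deviations of same-numbered libraries from their line means correlated at -0.012 on average over 84 pairs, and of others at 0.006 over 168. With the replicate block, 1 member was called between the KO lines, the adjusted p of *Notch3* in male p53 Y202C was 0.0503, of *Notch1* between the KO lines 0.0628, and of *Jag1* in female p53 Y217C 0.0495, and it changed no other call of a member.

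The log2 fold changes that changed sign were below the threshold throughout, and the cause was not tested. With a library left out, *Hey1* in male p53 R172H against its KO ranged from -0.15 to 0.02, *Notch1* and *Jag1* in female p53 R172H from -0.15 to 0.01 and from -0.01 to 0.07, and *Hey1* in female p53 Y202C from -0.01 to 0.26. Between mutants, *Hey2* in male p53 Y202C against p53 R172H ranged from -0.06 to 0.21, *Notch3* in male p53 Y202C against p53 Y217C from -0.16 to 0.10, *Notch1* in female p53 Y202C against p53 R172H from -0.15 to 0.02, and *Notch2* in female p53 Y217C against p53 R172H from -0.04 to 0.05. The last was also -0.02 with at least 10 counts in every library and -0.01 with DESeq2, with its size factors, and with only the lines compared.

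Leaving out libraries changed further calls, given as adjusted p. *Notch3* in female p53 Y202C against p53 R172H (0.0225) was lost without replicates 2 or 3 of p53 R172H (0.0613 and 0.0524) or replicate 2 of p53 Y202C (0.127). *Hey1* in the same comparison (0.0331) was lost without replicates 1, 2, or 3 of p53 R172H or replicates 2 or 3 of p53 Y202C (0.0506 to 0.0962), under limma (0.1), and with only the lines compared (0.0793). In female p53 Y217C against p53 R172H, *Notch1* passed without replicate 2 of p53 R172H (0.0119), *Notch3* without replicate 1 of p53 Y217C (0.0472) and under limma (0.0131), and *Hey1* without replicate 3 of p53 Y217C (0.0276). Between the KO lines, *Notch3* passed without replicate 1 of male p53 KO (0.0309). The smallest member level, 125 counts, sets the counting precision, and intervals between animals cannot be had from 1 culture per sex.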
